A study of Macaca mulatta with 15 samples.

Results

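The genes described here make cholesterol and fatty acids, or sense and move sterols inside the cell. They were taken as the rows of a deposited gene count table whose own symbol is on a list of 33 names, and 29 of the 34884 rows matched. EBP and CYP51A1 matched no row. ACAT2 and FDPS could be found only by gene identifier (ENSMMUG00000012843 and ENSMMUG00000023144), so their values are given beside those of the 29 and are not counted among them. The RNA came from peripheral blood T cells of 2 rhesus macaques, RhDBCb and RhM22, whose age and further health history are not stated in the labels. In each animal CD4 naive, CD4 memory, CD8 naive and CD8 memory T cells were taken before treatment (labelled as none) and after treatment. The agent was 2-hydroxypropyl-beta-cyclodextrin, sold as Kleptose, a ring of sugars that holds cholesterol in its cavity. The animals received it under the skin as a 15% (w/w) solution, 1 ml/kg/day, over a period of at most 120 days. The 15 libraries comprise 2 for each subset and time, 1 per animal, except that CD8 naive cells after treatment are from RhM22 alone; those of RhDBCb were not analysed here. No untreated animal was followed over the same period in the files used, so treatment and elapsed time cannot be told apart.

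Cholesterol is built from acetyl-CoA through mevalonate, isoprenoid diphosphates, squalene and lanosterol, and the isoprenoid diphosphates also feed protein prenylation. When membranes of the endoplasmic reticulum run short of sterol, SCAP escorts the membrane-bound transcription factor SREBP-2, the product of SREBF2, to the Golgi for cleavage, and the released part switches on most genes of the route; INSIG1 and INSIG2 hold SCAP back when sterol is plentiful. The related factor SREBP-1 drives fatty acid synthesis, and T cells are known to raise both routes when they leave rest and divide.

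The libraries held between 44415000 and 71787200 estimated counts each, and values are given as CPM, the count relative to the library's total after TMM scaling of the libraries. CPM is not divided by transcript length, so levels are compared between libraries and not between genes. CD4 transcript ranged from 207 to 549 CPM where the label is CD4 (8 libraries) and reached 1.68 CPM at most where it is CD8 (7 libraries). CD8A ranged from 665 to 861 CPM in the latter and reached 3.93 CPM at most in the former. Of 7 naive T cell markers tested, 5 were lower in memory than in naive CD4 cells and 6 in the same contrast of CD8 cells, and of 9 memory markers 7 were higher in each contrast. Of the 29 members, 27 were expressed enough to be tested among 14814 genes. The labels do not say by which markers or method naive and memory cells were sorted. Because the samples are bulk RNA, fewer cells of one kind and less RNA per cell cannot be told apart. The 15 libraries come from 4 blood draws, so the p-values measure the spread among libraries that partly share a draw.

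The first comparison was of memory with naive cells, over both times. In CD4 cells, 5 of the 27 tested members were higher in memory cells, namely SQLE, PMVK, FDFT1, STARD4 and FADS1, and 1, INSIG2, was lower. A member was called by edgeR's quasi-likelihood test at an adjusted p under 0.05, adjusted over all genes tested. By the same rule 8.38% of all genes were called, 5.22% higher and 3.16% lower. The median log2 difference of the members was 0.21 and that of all genes was -0.03, and 18 of the 27 members lay above 0. In CD8 cells SQLE and STARD4 were called higher in memory cells and no member lower, where 13.5% of all genes were called and 8.1% called higher. The median of the members there was 0.22 against 0.03 for all genes.

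**Figure D1:**
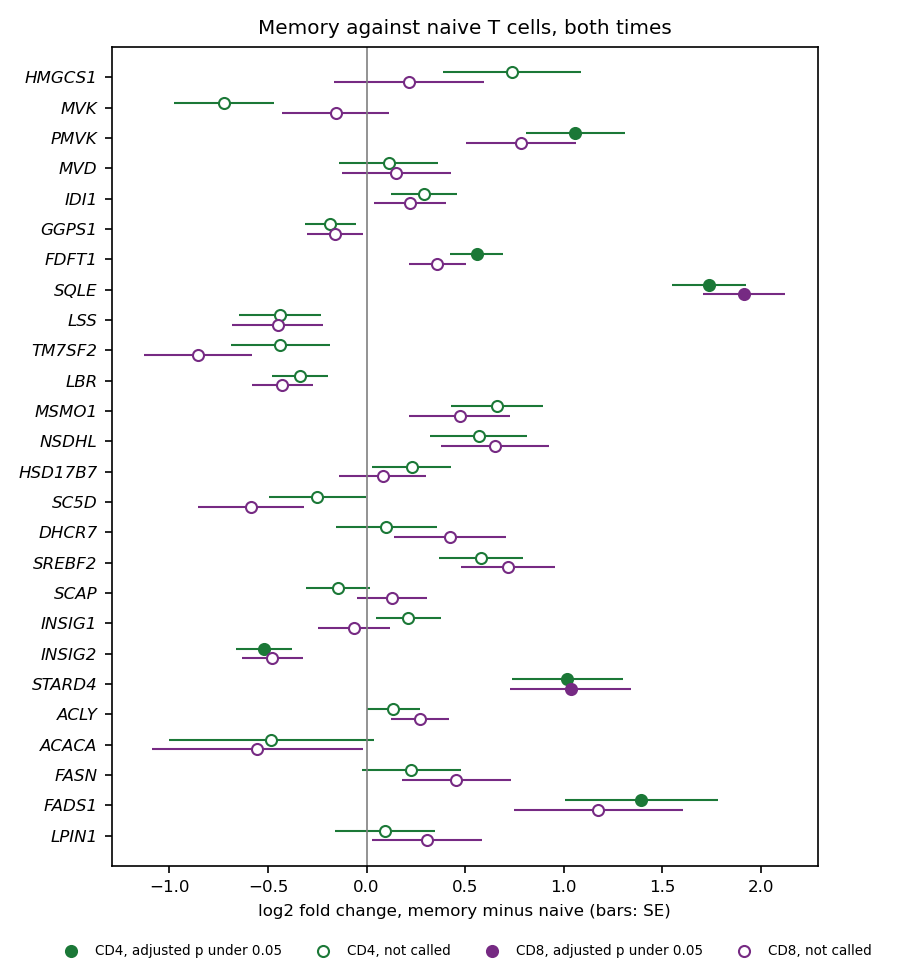
Memory minus naive log2 fold change (horizontal axis, bars are standard errors) of 26 members in CD4 cells (green) and CD8 cells (purple), in pathway order. Filled points passed an adjusted p of 0.05 in edgeR. SQLE lies furthest to the right in both, at 1.74 and 1.92. FADS2, with 127 counts over all libraries, was left out.

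SQLE (ENSMMUG00000003535) encodes squalene epoxidase, which puts the first oxygen on the squalene chain and is one of the controlled steps of the route. In RhDBCb before treatment its CD4 naive library held 32.0 CPM, CD4 memory 121, CD8 naive 14.8 and CD8 memory 51.1. After treatment that animal had 30.2 CPM (CD4 naive), 75.4 (CD4 memory) and 34.2 (CD8 memory). RhM22 had 17.2, 63.0, 7.37 and 38.4 CPM before and 19.8, 69.3, 8.61 and 33.2 CPM after, in the same order of subsets. The libraries of the 4 subsets do not overlap: every CD4 memory library lay above every CD8 memory library, these above every CD4 naive library, and these above every CD8 naive library. The share of all genes whose libraries separate in this way was not counted, here or for INSIG2, FADS1 and SC5D below. The means were 82.1 ± 26.3 CPM in CD4 memory (SD, n = 4), 39.2 ± 8.26 in CD8 memory (n = 4), 24.8 ± 7.40 in CD4 naive (n = 4) and 10.3 ± 3.99 in CD8 naive cells (n = 3). Memory exceeded naive cells by a log2 difference of 1.74 in CD4 (SE 0.19, edgeR adjusted p = 6.81e-05) and by 1.92 in CD8 cells (SE 0.21, adjusted p = 7.47e-05). Both calls held when each of the 15 libraries was left out in turn, with log2 differences of 1.63 to 1.85 in CD4 and 1.79 to 2.05 in CD8 cells.

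Among the enzymes before squalene, PMVK and FDFT1 were higher in CD4 memory than in CD4 naive cells. PMVK (ENSMMUG00000052450), phosphomevalonate kinase, stood at 22.6, 31.6, 18.7 and 14.6 CPM in CD4 naive cells (RhDBCb before and after, RhM22 before and after) and at 49.1, 76.3, 29.5 and 33.2 CPM in CD4 memory cells. Each memory library lay above the naive library of its own draw, while the lowest memory value, in RhM22, lay below the highest naive value, in RhDBCb. The log2 difference was 1.06 (SE 0.25, edgeR adjusted p = 0.0181). FDFT1 (ENSMMUG00000054351), squalene synthase, which joins the farnesyl units into squalene, stood at 176, 135, 107 and 111 CPM in the naive and 228, 197, 168 and 176 CPM in the memory cells, in the same order. Again each memory library lay above its own naive library, and the groups overlapped across animals. The log2 difference was 0.56 (SE 0.13, adjusted p = 0.0180). Neither gene was called by edgeR in CD8 cells, where PMVK differed by 0.79 (SE 0.28, edgeR adjusted p = 0.0771). DESeq2 called PMVK higher in CD8 memory cells (adjusted p = 0.0346).

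FDPS, farnesyl diphosphate synthase, found by identifier only, was higher in memory cells of both lineages. It stood at 32.5, 26.6, 18.5 and 20.3 CPM in CD4 naive and at 52.6, 52.7, 31.5 and 30.5 CPM in CD4 memory cells, in the order RhDBCb before and after, RhM22 before and after. The CD8 naive values were 29.7 CPM in RhDBCb before, 16.3 in RhM22 before and 20.7 in RhM22 after, and the CD8 memory values were 72.6 and 37.2 CPM in RhDBCb and 29.2 and 34.7 CPM in RhM22, before and after. In all 7 pairs of a memory and a naive library of the same draw the memory library lay above. The log2 differences were 0.76 in CD4 (SE 0.19, edgeR adjusted p = 0.0218) and 0.84 in CD8 cells (SE 0.21, adjusted p = 0.0143). ACAT2, which joins acetyl-CoA units at the head of the route, was called by edgeR in no comparison. It ranged from 62.8 to 125 CPM over the 15 libraries. Its memory libraries lay above naive in all 7 pairs, by a median log2 difference of 0.11. Its CD8 libraries lay below CD4 in all 7 pairs of the same draw and stage, at a median of -0.36. The deposited counts of FDPS, ACAT2, FDFT1 and GGPS1 are not whole numbers in any of the 15 libraries (to a tolerance of 0.001 counts). Nor are those of IDI1 and LPIN1 in 14 of them, TM7SF2 in 12, ACLY in 10, LSS in 8 and MVD in 7. Such counts mark reads shared with other loci, so these genes may be split with near-identical copies.

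Of the 5 sterol sensing and transport genes, STARD4 was higher and INSIG2 lower in CD4 memory cells. STARD4 (ENSMMUG00000063177), which carries cholesterol between membranes, stood at 12.3, 13.3, 16.9 and 32.0 CPM in CD4 naive and at 30.0, 17.7, 45.3 and 61.7 CPM in CD4 memory cells, ordered as above. In CD8 naive cells it stood at 15.0 CPM in RhDBCb before, 20.4 in RhM22 before and 25.3 in RhM22 after, and in CD8 memory cells at 21.2 and 30.7 CPM in RhDBCb and 71.9 and 32.3 CPM in RhM22. The groups overlapped, with the 2 highest values in memory cells of RhM22, but memory lay above naive in all 7 pairs of the same draw. The log2 differences were 1.02 in CD4 (SE 0.28, edgeR adjusted p = 0.0366) and 1.03 in CD8 cells (SE 0.31, adjusted p = 0.0380). INSIG2 (ENSMMUG00000006354), the anchor that keeps SCAP in the endoplasmic reticulum, stood at 51.4, 37.7, 39.1 and 44.7 CPM in CD4 naive cells and at 30.3, 31.6, 31.5 and 27.1 CPM in CD4 memory cells. No CD4 memory library reached the lowest CD4 naive value. The log2 difference was -0.52 in CD4 (SE 0.14, edgeR adjusted p = 0.0369) and -0.48 in CD8 cells, where edgeR did not call it (SE 0.16, adjusted p = 0.0558). SREBF2 itself was not called by edgeR in either lineage. Its log2 difference in CD8 cells was 0.72 (SE 0.24, edgeR adjusted p = 0.0601). In CD8 memory cells DESeq2 called INSIG2 lower (-0.46, adjusted p = 0.0144) and SREBF2 higher (0.73, adjusted p = 0.0215).

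In the fatty acid branch FADS1 was the single member called by edgeR, in CD4 cells. FADS1 (ENSMMUG00000013798), the delta-5 desaturase that adds a double bond to long polyunsaturated chains, stood at 1.68, 0.734, 1.67 and 1.49 CPM in CD4 naive and at 2.76, 4.05, 3.31 and 3.86 CPM in CD4 memory cells. The CD4 groups do not overlap. The log2 difference was 1.39 in CD4 (SE 0.39, edgeR adjusted p = 0.0393) and FADS1 was not called by edgeR in CD8 cells (SE 0.43, adjusted p = 0.0860). DESeq2 called FADS1 higher in CD8 memory cells as well, at a log2 difference of 1.19 (adjusted p = 0.0325). Memory lay above naive in all 7 pairs of the same draw and lineage. FASN, ACACA, ACLY and LPIN1, which make palmitate, its precursors and diacylglycerol, were not called in either lineage.

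The difference between the lineages in the memory effect was tested as well, and no member was called, where 6 of all genes (0.0405%) were; 1007 genes had an unadjusted p under 0.05, none of them a member, and DESeq2 called 244 genes and no member. The smallest p-values among members were those of MVK, mevalonate kinase, with a difference of 0.57 (SE 0.37, edgeR adjusted p = 0.868), of FADS2 and of SCAP, with 0.27 (SE 0.24, adjusted p = 0.945). A call in CD4 and none in CD8 cells is therefore not shown to be a difference between them.

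Over the 7 pairs of a memory and a naive library of the same draw and lineage, 7 of the 27 members lay above naive in every pair, namely FADS1, FDFT1, NSDHL, PMVK, SQLE, SREBF2 and STARD4, against 12.6% of all genes. Another 4, INSIG2, LBR, MVK and TM7SF2, lay below in every pair, against 10.3% of all genes. LBR and TM7SF2 both reduce the C14 double bond of the sterol ring after lanosterol, and NSDHL works in removal of the C4 methyl groups; edgeR called none of the 3 in either lineage.

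Fitted on the 8 libraries drawn before treatment alone, SQLE was the single one of the 27 members called in either lineage. Of all genes 141 were called there in CD4 and 539 in CD8 cells, against 1242 and 1999 on the 15 libraries. SQLE was again the single member called when the animal was left out of the model, where 502 and 941 of all genes were called. On those 8 libraries the CD4 log2 differences were 0.52 for FDFT1, 0.87 for PMVK, 1.36 for STARD4 and -0.53 for INSIG2, with edgeR adjusted p-values of 0.239, 0.314, 0.118 and 0.328. FADS1 was at 0.86 there (edgeR adjusted p = 0.577) and at 0.81 with limma on log2 of FPKM plus 0.1 (adjusted p = 0.0662), a scale that understates changes of low genes. STARD4 also lost its calls with limma (adjusted p = 0.0596 in CD4 and 0.0742 in CD8 cells). FDPS lost its CD4 call on the libraries before treatment (edgeR adjusted p = 0.195) and kept its CD8 call (0.0423). It lost both calls when the animal was left out of the model (edgeR adjusted p = 0.245 in CD4 and 0.123 in CD8 cells). INSIG2 lost its CD4 call when low counts were not filtered (edgeR adjusted p = 0.0632). Without the 4 libraries of RhDBCb before treatment, a choice made after seeing the data, FDFT1, FADS1 and PMVK remained called in CD4 cells, with edgeR adjusted p-values of 0.00546, 0.00969 and 0.0153, and STARD4 (0.102) and INSIG2 (0.103) did not. STARD4 also lost its CD8 call there (edgeR adjusted p = 0.0581), while FDPS kept both (0.00802 and 0.0291). Leaving out 1 library at a time, FDFT1 and PMVK each kept their CD4 call in 12 of 15 fits, STARD4 in 9 and in 10 in the CD8 contrast, FADS1 in 8 and INSIG2 in 7. The adjusted p reached 0.0683 for FDFT1, 0.0734 for PMVK, 0.125 for STARD4 in CD4 and 0.182 in CD8 cells, 0.122 for FADS1 and 0.132 for INSIG2, and FDPS kept its CD4 call in 11 and its CD8 call in 13. Every library whose removal ended one of these calls was a library of the subsets compared, except that INSIG2 also lost its call without the RhM22 CD8 naive library taken after treatment.

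Proliferation markers moved with the memory cells. All 15 lay above 0 in both contrasts, 8 were called higher in CD4 and 7 in CD8 memory cells, and none was lower. Their summed level was 275 to 372 CPM in naive and 431 to 1083 CPM in memory libraries, with the top value in CD8 memory cells of RhDBCb before treatment; CCNB2 was at 0 counts in 3 libraries, BIRC5 in 2 and BUB1 in 1. The part of dividing cells in the differences of SQLE and the other members was not tested.

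Other genes of the routes were called in both directions between memory and naive cells. Among 19 further sterol pathway genes tested, SOAT1, which esterifies cholesterol for storage, was higher in CD8 memory than in CD8 naive cells, with a log2 difference of 0.78. Of 22 further fatty acid and glycerolipid genes, ELOVL5, an elongase of polyunsaturated chains, was higher in both lineages, at 0.78 in CD4 and 1.15 in CD8 cells. HACD3 was lower in both, at -0.49 and -0.62. In CD8 cells the acyl-CoA synthetase ACSL4 was also higher, at 0.80, as was its relative ACSL5, at 0.63, and MECR, of the mitochondrial fatty acid route, was lower at -1.57. Of 11 isoprenoid branch genes none was called in CD4 cells and FNTB, a farnesyltransferase subunit, was lower at -0.54 in CD8 cells.

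The second comparison set CD8 against CD4 cells. SQLE was lower in CD8 cells among both naive and memory cells, and SC5D was lower in CD8 among memory cells. Among naive cells SQLE had a log2 difference of -1.22 (SE 0.21, edgeR adjusted p = 0.00358) and was the single member of 27 called, where 2.79% of all genes were called and 1.26% called lower. Among memory cells the log2 difference was -1.04 (SE 0.18, edgeR adjusted p = 0.00303), and there SQLE and SC5D were the 2 members called, where 6.35% of all genes were called and 2.59% called lower.

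SC5D (ENSMMUG00000053625), the desaturase that makes 7-dehydrocholesterol late in the route, stood at 163 and 143 CPM in RhDBCb and 177 and 167 CPM in RhM22 in CD4 memory cells, before and after. The CD8 memory values were 42.9 and 107 CPM in RhDBCb and 87.8 and 61.2 CPM in RhM22. All 4 CD8 memory libraries lay below all 4 CD4 memory libraries, with a log2 difference of -1.14 (SE 0.25, edgeR adjusted p = 0.0119). Among naive cells it stood at 171, 254, 161 and 193 CPM in CD4 and at 79.9, 136 and 115 CPM in CD8 cells, which do not overlap either, but the log2 difference of -0.80 was not called (SE 0.28, edgeR adjusted p = 0.189).

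**Figure D2:**
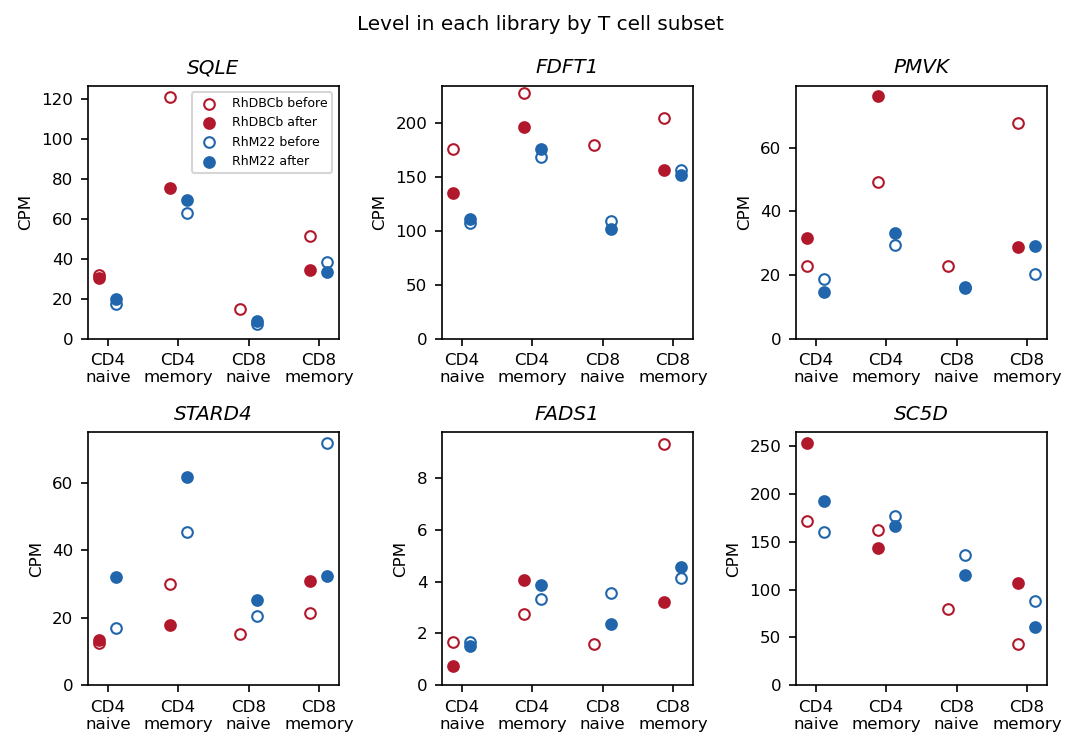
CPM (vertical axis, from 0) of 6 members in each library by subset, with 1 point per library, open before and filled after treatment, red for RhDBCb and blue for RhM22. SQLE separates all 4 subsets, SC5D lies lowest in CD8 cells, and STARD4 and FADS1 each have 1 CD8 memory library well above the other CD8 memory libraries.

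Over the 7 pairs of a CD8 and a CD4 library of the same draw and stage, SC5D and SQLE lay lower in CD8 cells in every pair, against 5.79% of all genes. ACLY, which makes cytosolic acetyl-CoA from citrate, and LPIN1, a phosphatidate phosphatase, lay higher in CD8 cells in every pair, against 6.3% of all genes, and neither was called. The 3 calls held in all 15 fits that left out 1 library. They were lost on the libraries drawn before treatment alone. There the edgeR adjusted p was 0.0762 for SQLE among naive cells, 0.112 for SQLE among memory cells and 0.0702 for SC5D. Of all genes 109 and 147 were called there among naive and memory cells, against 414 and 941 on the 15 libraries. Without the animal as a block the edgeR adjusted p-values of SQLE were 0.0623 and 0.0671, with 196 and 384 of all genes called. Of the other genes of the routes SOAT1 was higher in CD8 than in CD4 memory cells, at 0.76, and RNF145, a ubiquitin ligase of the sterol sensing machinery, at -1.21, and ACSS2, which makes acetyl-CoA from acetate, at -1.73, were lower. Natural killer cell markers differed in the same contrast, 5 of 8 being higher in CD8 memory cells, with summed levels of 70.3 to 177 CPM against 7.4 to 9.6 CPM in CD4 memory cells; summed levels among naive cells were 30.5 to 56.8 CPM in CD8 against 5.5 to 7.6 CPM in CD4, with 3 of 8 called higher, and 3 of the 8 were also higher in CD8 memory than in CD8 naive cells. B cell markers were higher in CD8 naive than in CD4 naive cells for 3 of 7, with summed levels of 67.0 to 113 CPM against 21.2 to 27.3 CPM, and 1 of the 7 was higher in CD8 than in CD4 memory cells. The part of these markers in the results was not tested.

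The third comparison was of cells after treatment with cells before. Over all subsets and both animals no member of 27 was called higher or lower. Among all genes 1 was called (0.00675%), IFIT2, an interferon-induced gene named here after its values were seen, at -1.36 (SE 0.18, edgeR adjusted p = 0.0292). At an unadjusted p under 0.05 there were 1526 genes, 3 of them members, and DESeq2 called 177 genes and no member. The median log2 difference of the members was 0.04 and that of all genes 0.01. The 3 members of smallest p were SREBF2, SCAP and IDI1.

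SREBF2 (ENSMMUG00000003357) stood in RhDBCb at 26.2 CPM before and 73.6 after (CD4 naive), 59.8 and 80.4 (CD4 memory) and 94.5 and 123 (CD8 memory), with 47.0 CPM in its CD8 naive cells before. In RhM22 it stood at 77.2 and 91.2 CPM in CD4 naive, 112 and 142 in CD4 memory, 71.4 and 99.4 in CD8 naive and 107 and 119 in CD8 memory cells. All 7 pairs lay higher after treatment, and the levels before and after overlapped across subsets and animals. The log2 difference of 0.48 was not called (SE 0.16, edgeR adjusted p = 0.374).

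SCAP (ENSMMUG00000014046) stood in RhDBCb at 64.0 and 127 CPM (CD4 naive), 72.4 and 86.3 (CD4 memory) and 95.3 and 120 (CD8 memory), before and after, and at 73.3 in CD8 naive cells before. In RhM22 it was 118 and 126 CPM in CD4 naive, 109 and 126 in CD4 memory, 118 and 120 in CD8 naive and 103 and 123 in CD8 memory cells. It too lay higher after treatment in all 7 pairs, with a log2 difference of 0.32 that was not called (SE 0.12, edgeR adjusted p = 0.418). SREBF2 and SCAP are the 2 members that lay higher after treatment in every pair, against 2.02% of all genes.

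IDI1 (ENSMMUG00000017115), the isomerase that turns isopentenyl into dimethylallyl diphosphate, lay lower after treatment in every pair, as did 1.86% of all genes and no other member. In RhDBCb the values before and after were 77.9 and 56.7 CPM (CD4 naive), 105 and 53.9 (CD4 memory) and 79.8 and 76.5 (CD8 memory), and 95.9 CPM in CD8 naive cells before. In RhM22 the pairs were 47.0 and 42.5, 58.4 and 56.3, 47.2 and 45.3, and 70.2 and 57.9 CPM, in CD4 naive, CD4 memory, CD8 naive and CD8 memory cells. The log2 difference was -0.33, not called (SE 0.13, edgeR adjusted p = 0.425). Without the 4 libraries of RhDBCb before treatment, left out by the same choice, the log2 difference was -0.13 for IDI1, 0.15 for SCAP and 0.31 for SREBF2.

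**Figure D3:**
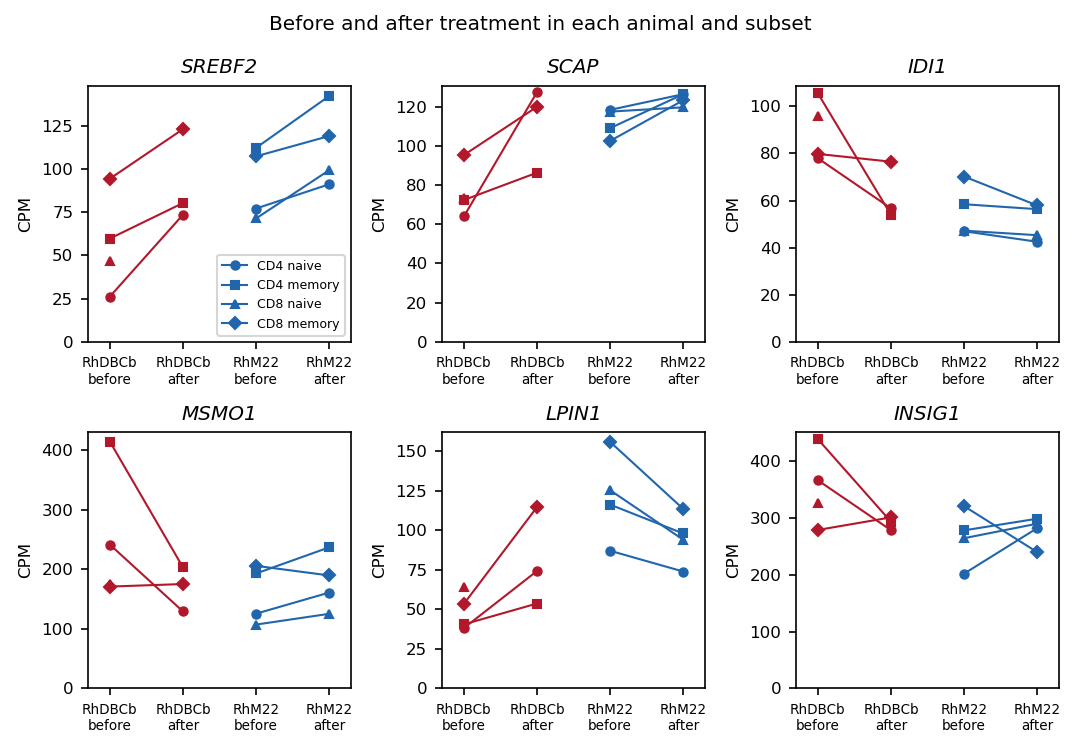
CPM (vertical axis, from 0) of 6 members before and after treatment in RhDBCb (red) and RhM22 (blue), with lines joining the libraries of 1 subset. SREBF2 and SCAP lie higher after treatment in every pair and IDI1 lower, whereas LPIN1 runs upward in RhDBCb and downward in RhM22 and has its RhDBCb libraries below those of RhM22 before treatment.

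Subset by subset no member and no gene at all was called (0% of all genes in each of the 4). Genes with an unadjusted p under 0.05 numbered 603 in CD4 naive, 230 in CD4 memory, 148 in CD8 naive and 216 in CD8 memory cells. DESeq2 called 9 genes in CD4 naive cells, FADS2 among them, and none in the other subsets. FADS2 reached 0.102 CPM at most in the 4 CD4 naive libraries, with a median of 0, so its call there rests on very few counts. In CD4 naive cells the members of smallest p were SREBF2 at 0.80 (SE 0.33, edgeR adjusted p = 0.897), SCAP at 0.54 and STARD4 at 0.51. In CD4 memory cells they were FASN, the fatty acid synthase, at 0.77 (SE 0.38, edgeR adjusted p = 1), IDI1 at -0.49 and SREBF2 at 0.38. In CD8 naive cells they were SREBF2 at 0.47 (SE 0.41), HMGCS1, which makes the precursor of mevalonate, at 0.72 and MVD at 0.52, from RhM22 after treatment alone. In CD8 memory cells they were FADS2, FADS1 at -0.86 (SE 0.55) and SQLE at -0.37. Leaving out single libraries of the subset moved most of these values by over 1.5 times. In CD4 naive cells SREBF2 ran from 0.31 (without RhDBCb before) to 1.41 (without RhM22 before), SCAP from 0.26 to 0.83 in the same order, and STARD4 from 0.26 (without RhM22 before) to 0.79 (without RhDBCb before). In CD4 memory cells FASN ran from 0.24 (without RhDBCb after) to 1.19 (without RhM22 after), IDI1 from -0.83 (without RhM22 after) to -0.18 (without RhDBCb after) and SREBF2 from 0.22 (without RhDBCb before) to 0.58 (without RhM22 before). MVD in CD8 naive cells ran from 0.29 (without RhDBCb before) to 0.88 (without RhM22 before). In CD8 memory cells SQLE ran from -0.71 (without RhM22 after) to -0.09 (without RhDBCb after) and FADS1 from -1.52 to 0.13, the latter without RhDBCb before.

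The animals were then compared. LPIN1 was the single member of 27 whose change with treatment differed between them, where 4.58% of all genes did and 2.77% with RhM22 below RhDBCb. LPIN1 (ENSMMUG00000021672), also called lipin 1, stood in RhDBCb at 38.1 and 74.1 CPM (CD4 naive), 40.4 and 53.6 (CD4 memory) and 53.4 and 115 (CD8 memory), before and after, and at 64.1 in CD8 naive cells before. In RhM22 it stood at 86.9 and 73.8 CPM in CD4 naive, 116 and 97.9 in CD4 memory, 125 and 93.9 in CD8 naive and 156 and 113 in CD8 memory cells. Each of the 3 pairs of RhDBCb went up and each of the 4 of RhM22 went down, and before treatment the highest RhDBCb library lay below the lowest RhM22 library. The log2 difference between the animals was -1.09 (SE 0.24, edgeR adjusted p = 0.0239). MSMO1 came next, at 0.86 (SE 0.26, edgeR adjusted p = 0.0791), and was called by DESeq2 (adjusted p = 0.0223).

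Within RhDBCb 4 of 27 members were called, LPIN1 and SCAP higher and MSMO1 and IDI1 lower after treatment, where 10.1% of all genes were called, 5.49% higher and 4.62% lower. LPIN1 rose by a log2 difference of 0.76 (SE 0.18, edgeR adjusted p = 0.0198) and SCAP by 0.54 (SE 0.16, adjusted p = 0.0458). MSMO1 (ENSMMUG00000056040), the oxidase that starts removal of the C4 methyl groups, stood at 241 and 129 CPM (CD4 naive), 414 and 203 (CD4 memory) and 171 and 175 (CD8 memory), with 175 in CD8 naive cells before. Its fall was in the 2 CD4 subsets, and the CD8 memory pair did not fall; the log2 difference was -0.69 (SE 0.20, edgeR adjusted p = 0.0416). IDI1 fell by 0.57 (SE 0.17, edgeR adjusted p = 0.0456). In RhDBCb DESeq2 also called SREBF2 (0.70, adjusted p = 0.0261) and SC5D (0.63, 0.0417) higher after treatment. It called FDFT1 (-0.37, adjusted p = 0.0148), GGPS1 (-0.36, 0.0123) and SQLE (-0.47, 0.0480) lower. In RhM22 no member was called and 9 of all genes were (0.0608%); 974 genes had an unadjusted p under 0.05, none of them a member, and DESeq2 called 233 genes and no member. The members of smallest p there were LPIN1 at -0.34 (SE 0.16, edgeR adjusted p = 0.771), HMGCS1 at 0.50 (SE 0.31) and SREBF2 at 0.31 (SE 0.20).

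**Figure D4:**
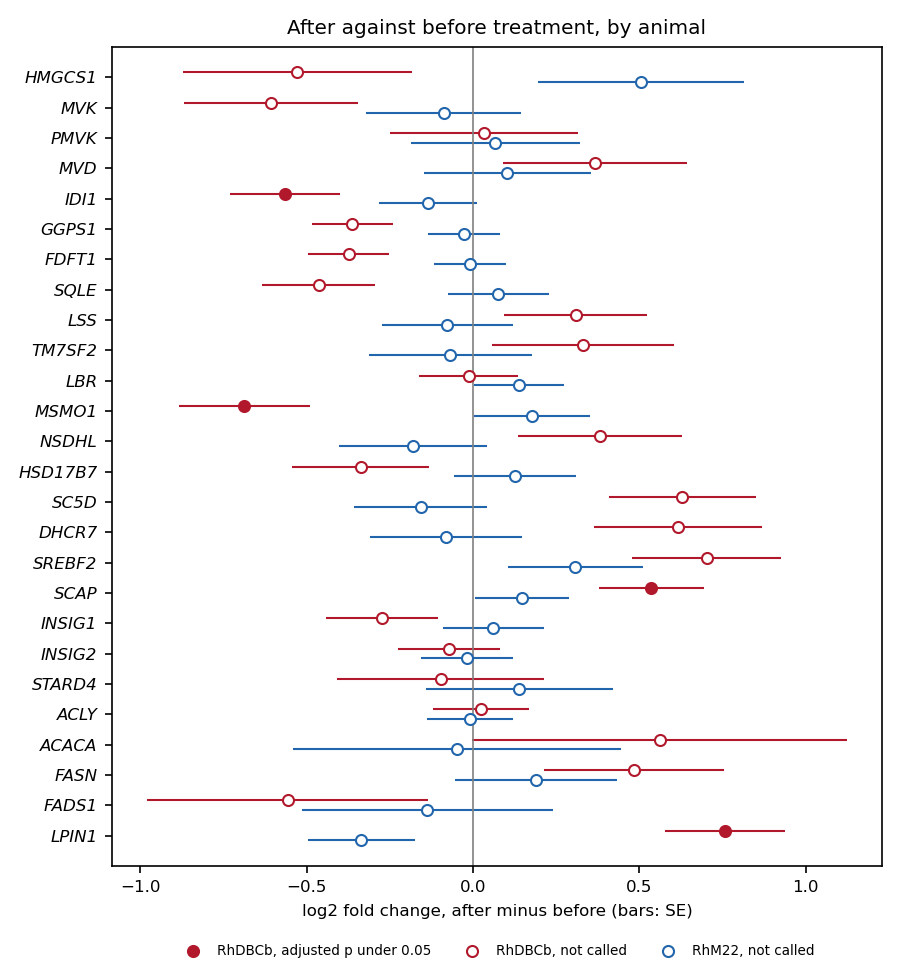
After minus before log2 fold change (horizontal axis, bars are standard errors) of 26 members in RhDBCb (red) and RhM22 (blue). Filled points passed an adjusted p of 0.05 in edgeR: LPIN1 at 0.76, SCAP at 0.54, IDI1 at -0.57 and MSMO1 at -0.69, all in RhDBCb; FADS2 was left out.

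The calls within RhDBCb rest on 1 draw before and 1 after. Leaving out 1 library at a time kept the call of LPIN1 in 11 of 15 fits, of MSMO1 in 4, of SCAP in 3 and of IDI1 in 2. Between 0 and 8 members were called in these fits, and between 225 and 2188 of all genes. Without the CD4 naive library before or after, the CD4 memory library before or the CD8 memory library after, all of that animal, no member was called, and without its CD8 memory library before 8 were. On the 7 libraries of RhDBCb alone no member was called, but only 1 of all genes was, against 1499 on all 15 libraries. The LPIN1 difference between the animals kept its call in 9 of 15 fits, with -1.32 to -0.96 on the log2 scale and an adjusted p up to 0.109, reached without the RhDBCb CD4 naive library after treatment.

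SREBF1 (ENSMMUG00000023375), which encodes the factor of the fatty acid branch and is no member, differed between the animals in the same direction as LPIN1. It stood at 16.5, 19.6, 20.6 and 22.8 CPM in the 4 RhDBCb libraries before treatment and at 92.1, 62.3 and 76.6 CPM in the 3 after. In RhM22 it stood at 159, 172, 166 and 114 CPM before and 115, 121, 103 and 109 CPM after. It rose by 1.95 in RhDBCb (SE 0.18, edgeR adjusted p = 0.000136) and the difference between the animals was -2.40 (SE 0.25, adjusted p = 0.000648). Over both animals its log2 difference was 0.65 and was not called (SE 0.36, edgeR adjusted p = 0.553).

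Of the 19 further sterol pathway genes 4 rose in RhDBCb and none fell: SREBF1, POR, the electron donor of the sterol oxidases, at 0.95, MBTPS1, the protease that makes the first cut in SREBP, at 0.77, and FAXDC2 at 0.71. Of 22 further fatty acid genes ACSS2 rose by 1.54, ACSL1 by 0.64, and ACSL5 fell by 0.42. Of 11 isoprenoid branch genes the prenyltransferase subunits RABGGTB and PGGT1B fell by 1.38 and 1.29, and no gene rose. The animals differed in the change of POR (-1.20), ACSL1 (-1.13), RABGGTB (1.62) and PGGT1B (1.46). Platelet markers moved with the RhDBCb libraries: 3 of 10 were called higher after treatment, and their summed level was 5.2 to 8.6 CPM before and 15.2 to 27.9 CPM after, with GP9 at 0 counts in all 4 libraries before. Of 9 monocyte and dendritic cell markers 1 was higher, with sums of 3.8 to 12.7 CPM before and 10.5 to 46.3 CPM after. Of the 15 proliferation markers BIRC5 was called lower and 3 lay above 0, with a median log2 difference of -0.57, and their summed level in CD8 memory cells was 1083 CPM before and 474 CPM after. Of 9 memory T cell markers ANXA1 (0.60) and IL2RB (0.98) were higher and ITGB1 (-1.11) lower, and of the naive markers BACH2 was higher, at 1.17. The part of these markers in the changes of RhDBCb was not tested.

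Irrespective of treatment, GGPS1 and HSD17B7 were the 2 members whose RhDBCb libraries all lay above all RhM22 libraries, as did 2.69% of all genes. GGPS1, which makes the geranylgeranyl chain for prenylation, stood at 106 to 160 CPM in the 7 RhDBCb libraries and at 76.4 to 95.8 CPM in the 8 of RhM22. HSD17B7, the ketone reductase of C4 demethylation, stood at 94.3 to 176 CPM in RhDBCb and at 51.6 to 85.0 CPM in RhM22. No member had all RhM22 libraries above those of RhDBCb, whereas 2.25% of all genes did. With 1 animal on each side, this difference has no test across animals.

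Part of the fatty acid branch was scarcely counted in these T cells. SCD, the stearoyl-CoA desaturase, had 21 counts over all 15 libraries and ELOVL6, an elongase of palmitate, had 48, and neither was tested. FADS2, the delta-6 desaturase, had 127 counts in all, 89 of them in the CD8 memory cells of RhDBCb before treatment, and 0 counts in 8 libraries. With so few counts no fold change is given for it. FASN stood at 2.66 to 10.9 CPM, ACACA at 0.655 to 9.51 CPM and ACLY at 95.6 to 171 CPM over the 15 libraries.

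The remaining cholesterol enzymes were counted in all libraries and called by edgeR in no comparison. DESeq2 called MVK lower in CD4 memory than in CD4 naive cells (adjusted p = 0.0356), and LBR (0.0486) and TM7SF2 (0.0185) lower in CD8 memory than in CD8 naive cells. Outside these enzymes DESeq2 also called MSMO1 higher in CD4 memory cells (adjusted p = 0.0385) and the scarcely counted FADS2 higher in CD8 memory cells (0.0094). Its CD8 memory calls of PMVK, FADS1 and SREBF2 higher and of INSIG2 lower are given above. HMGCS1 ranged from 20.6 to 92.8 CPM and MVK reached at most 8.02 CPM. MVD ranged from 16.7 to 37.7 and LSS, which closes the sterol ring, from 21.5 to 54.3. TM7SF2 ranged from 2.71 to 10.9 CPM, LBR from 145 to 288, NSDHL from 7.83 to 24.3 and DHCR7, which catalyses the last reduction to cholesterol, from 14.4 to 47.5. INSIG1, the SREBP-controlled partner of INSIG2, ranged from 202 to 439 CPM and was called in no comparison by either tool; its log2 difference between memory and naive cells was 0.21 in CD4 and -0.06 in CD8 cells. SQLE had the widest range of the members with counts in every library, at 16.4 times from lowest to highest, followed by ACACA at 14.5 and FADS1 at 12.7 times.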

How the data were processed

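Polyadenylated RNA of 15 libraries was made into SMART-Seq v4 libraries without strand marking, per the labels' protocols. RSEM 1.3.3, STAR 2.7.6a, cutadapt 1.18 and the build Mmul_10 are named, per the submitters' processing notes. The authors deposited expected counts per gene, and FPKM; for 64.1% of 8236 genes compared the length implied by count and FPKM was a constant share, within 10% of the median ratio, of the whole gene span, so FPKM served only in 1 alternative (log2 of FPKM plus 0.1, limma 3.58.1). The expected counts were rounded, filtered (filterByExpr, minimum count 10), scaled by TMM and fitted on all libraries with edgeR 4.0.16 in R 4.3.3 (quasi-likelihood, animal as a block), with Benjamini-Hochberg adjustment over 14814 genes; DESeq2 1.42.0 was an alternative. Scripts were tested on simulated data.

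Animals pair the libraries by name in the labels; deviations of same-animal libraries correlated at r 0.23 to 0.57 over all pairs of groups. Members, gene lists and tests were chosen with earlier results of these data known. Members called in a comparison are given in every library, at most 6 per comparison by size of change, otherwise the 3 of smallest p; other lists at most 2 genes per direction (SREBF1, IFIT2, ACSL5 and FAXDC2 besides, the last 3 after their values were seen). Dose and times are from the labels. Sequences, coordinates and levels between genes were not used here. Some results on further sterol pathway genes are not reported here.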

Additional observations from a re-analysis of the deposited data

Results flagged for a closer look

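In 7 of the 88 sets of 4 libraries looked at (1 gene in 1 subset), 1 library stood apart from the others by the gap test of Dixon at 95%. Chance gives this in about 1 of 20 sets where the 4 values are like, independent draws. The libraries of a set differ here in animal and time, and sets share libraries, so that rate is no measure of these 7. In CD4 memory cells IDI1 stood highest in RhDBCb before treatment, at 105 CPM against 53.9 to 58.4 in the others. The same library stood highest for INSIG1, at 439 CPM against 279 to 299. NSDHL stood lowest in CD4 memory cells of RhM22 after treatment, at 17.1 CPM against 23.4 to 24.3. In CD4 naive cells SCAP stood lowest in RhDBCb before treatment, at 64.0 CPM against 118 to 127. RhDBCb after treatment stood highest in CD4 naive cells for MVD, at 37.7 CPM against 16.7 to 20.3, and for TM7SF2, at 10.9 CPM against 5.39 to 6.15. FDFT1 stood highest in CD8 memory cells of RhDBCb before treatment, at 205 CPM against 152 to 157. Of these 7 libraries' values, 6 belong to RhDBCb.

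The change of LPIN1 with treatment differed between the animals by an interaction term, at -1.09 on the log2 scale (RhM22 minus RhDBCb, edgeR adjusted p = 0.0239).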

How the results depend on the processing

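The study has 2 animals and 1 draw per animal and time. SQLE kept its memory calls under every alternative run. Counts of members called that moved were as follows. On the libraries before treatment alone, 1 member was called in each memory contrast and 0 in each CD8 against CD4 contrast. All genes called there numbered 141 in CD4 memory (against 1242 on all libraries) and 539 in CD8 memory (against 1999). Between naive lineages they numbered 109 (against 414), and between memory lineages 147 (against 941). Without the animal as a replicate block, 1 was called in CD4 memory, 1 in CD8 memory, 0 between naive lineages and 1 (SC5D) between memory lineages. All genes called there numbered 502, 941, 196 and 384, in the same order. The block could not be left out where the animal was tested. DESeq2 called 9 in CD8 memory (3109 genes against 1999), 9 in RhDBCb (2515 against 1499) and 2 in the difference between animals (1698 against 679). In CD4 naive treatment it called 1, the scarcely counted FADS2, and 9 genes in all. In CD4 memory it called 8 members (2181 genes against 1242). Between animals limma on FPKM called 0 members and 650 genes. In RhDBCb 2 members were called without a filter (1378 genes) and 0 on that animal's libraries alone (1 gene). Without the 4 libraries of RhDBCb before treatment, a choice made after seeing the data, 4 members were called in CD8 memory (1919 genes) and 5 in CD4 memory (1748 genes).

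Leaving out 1 library gave 2 to 6 members in CD4 memory, 1 to 5 in CD8 memory, 1 to 1 and 2 to 2 between naive and memory lineages, 0 to 2 between animals and 0 to 8 in RhDBCb; no member was called for treatment over all subsets, by subset or in RhM22. Over the same fits, 776 to 1436 of all genes were called in CD4 memory and 1041 to 2163 in CD8 memory. Between naive lineages 251 to 468 genes were called, and 621 to 1046 between memory lineages. The range was 99 to 1314 genes between animals and 225 to 2188 in RhDBCb. The CD8 memory treatment difference of FADS1 changed sign without the RhDBCb library before treatment (-1.52 to 0.13 over all fits that left out 1 library).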
